A study of Mus musculus with 34 samples.

Results

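The genes described here are 10 genes of the response to low oxygen: *Hif1a*, *Vegfa*, *Adm*, *Bnip3*, *Ankrd37*, *Egln1*, *Egln3*, *Slc2a1*, *Pdk1* and *Ndrg1*. They were taken by name from the mRNA-seq table of mouse limb buds, in which all 10 were found among 22040 genes. RNA came from limb buds of embryos at E11.5, with 3 libraries labelled Hnrnpk WT and 3 labelled Hnrnpk CKO, which the study calls biological replicates. CKO embryos were *Prrx1-Cre;Hnrnpk* fl/fl: the Cre recombinase is driven by *Prrx1* in limb bud mesenchyme and calvarium, incompletely in the hindlimb, and removes part of *Hnrnpk*, which encodes an RNA- and DNA-binding protein. Blood, vessels and surface ectoderm of the limb bud lie outside this deletion. The exact genotype of the WT embryos, and whether forelimbs and hindlimbs were pooled, is not given in the sources used here.

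Cells sense oxygen through prolyl hydroxylases, encoded by the *Egln* genes, which mark the HIF-α subunits for recognition by VHL and for degradation. When oxygen is short, HIF-α escapes this mark, pairs with ARNT and activates genes for glucose uptake, glycolysis, mitophagy and vessel growth. *Hif1a* mRNA therefore does not measure HIF-1α protein, and its target genes are the usual readout of the pathway in RNA. In the limb bud, VEGFA made outside the vessels draws in endothelial cells, which carry its receptor KDR.

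Levels are given in FPKM, which divides the fragments counted for a gene by its length and by the library size, and always in the order of replicates 1, 2 and 3. *Hnrnpk* itself was at 193, 195 and 185 in the WT and at 127, 142 and 135 in the CKO libraries. The groups did not overlap, and the log2 fold change was -0.50 (SE 0.13), with an adjusted *p* of 0.334 in limma and of 0.0575 with the replicate number as a block. The study reported efficient ablation of Hnrnpk in CKO limb buds by western blot and qPCR. The FPKM covers all exons, of which only part is removed, in tissue with cells outside the deletion. It therefore does not measure that ablation directly. The libraries held 17140869 to 24624434 reads on the listed genes. The first principal component held 52.6% of the variance and set replicate 1 of both groups apart from the other 4 libraries. Results are therefore also given for replicates 2 and 3 alone. That subset was chosen from these same values and leaves 2 libraries per group. Its *p* values are thus not independent support, and many more genes passed in it (1863 against 8 in the main fit). As the RNA is from whole tissue, fewer cells of a type and less RNA per cell cannot be told apart.

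Among the hypoxia genes, *Pdk1* stood out, with a CKO mean at 0.569 times the WT mean. The CKO mean of *Vegfa* was 0.793 times the WT mean, but the groups overlapped. *Hif1a*, *Slc2a1*, *Bnip3*, *Egln3* and *Ankrd37* had CKO means between 0.938 and 1.02 times their WT means. Those of *Egln1*, *Adm* and *Ndrg1* were 0.923, 0.837 and 1.26 times the WT mean. A mean level of 0.5 FPKM or more was reached by 9 of the genes, which were tested with limma on log2(FPKM + 0.1), but not by *Adm*. None of these 9 passed an adjusted *p* of 0.05, in limma or in limma voom on recovered reads, against 0.065% of all 12305 genes tested. At an unadjusted *p* under 0.05, 1 member (*Pdk1*) was lower and 0 were higher, beside 5.46% and 2.84% of all genes tested. With the replicate block, 1 member (*Pdk1*) passed the adjusted threshold as lower and 0 as higher, beside 1.68% and 1.13% of all genes. Voom on recovered reads with the block called *Pdk1* alone too, as lower, beside 3.45% lower and 1.85% higher of all genes. The median log2 fold change of the 9 members was -0.04, that of all genes tested was 0.00, and 7 of the 9 were below 0, beside 49.1% of all genes. Among these 7, *Hif1a* (-0.0007), *Slc2a1* (-0.02) and *Egln3* (-0.04) lay near 0. Their signs turned in some alternative fits, as did those of *Bnip3* and of *Ankrd37*, which was above 0.

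**Figure D1:**
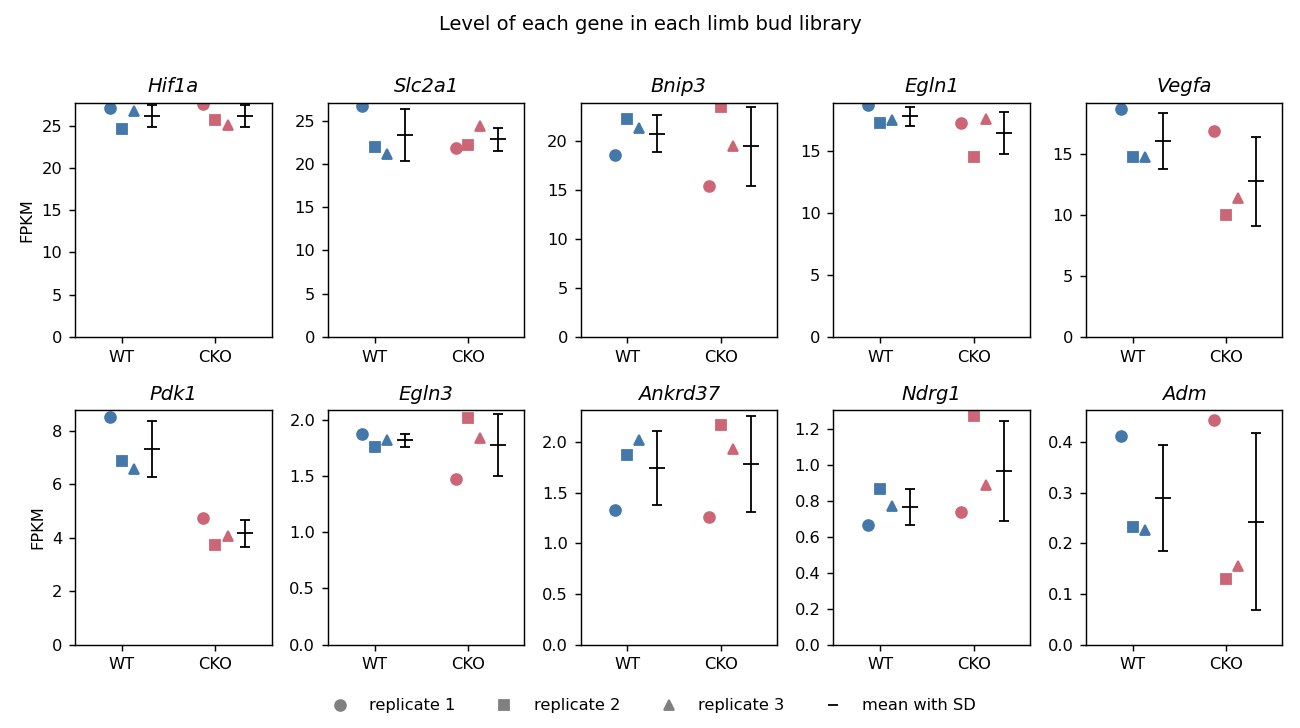
FPKM of each of the 10 genes in the WT (blue) and CKO (red) libraries, ordered by mean level, with the symbol showing the replicate number and the bar the mean with SD (n = 3). The 3 CKO values lie below the 3 WT values for *Pdk1* alone, and *Vegfa* is highest in replicate 1 of each group.

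The sequence before the start of the 2 genes with the lowest log2 fold changes is shown beside that of *Bnip3*, a HIF target with a log2 fold change of -0.11. Each run is the 250 bases upstream of a RefSeq transcript start on GRCm38.p6, written from 5′ to 3′ on the strand of the gene. Capitals mark the core of the hypoxia response element, searched as ACGTG and GCGTG on both strands, so that a match on the other strand reads CACGT or CACGC. The palindrome CACGTG, which is also an E-box, counts as 2 overlapping matches.
*Pdk1*, chr2:71872974-71873223, + strand: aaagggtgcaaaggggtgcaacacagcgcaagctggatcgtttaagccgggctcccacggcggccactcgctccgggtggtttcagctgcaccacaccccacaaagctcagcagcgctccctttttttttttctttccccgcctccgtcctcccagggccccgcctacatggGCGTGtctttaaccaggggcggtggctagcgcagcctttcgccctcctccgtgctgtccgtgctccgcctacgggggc
*Vegfa*, chr17:46032378-46032627, − strand: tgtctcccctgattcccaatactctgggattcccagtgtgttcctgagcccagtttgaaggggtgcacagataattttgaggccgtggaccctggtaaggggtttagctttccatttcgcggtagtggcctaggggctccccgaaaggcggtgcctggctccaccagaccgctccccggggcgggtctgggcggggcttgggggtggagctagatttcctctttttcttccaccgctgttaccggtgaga
*Bnip3*, chr7:138909507-138909756, − strand: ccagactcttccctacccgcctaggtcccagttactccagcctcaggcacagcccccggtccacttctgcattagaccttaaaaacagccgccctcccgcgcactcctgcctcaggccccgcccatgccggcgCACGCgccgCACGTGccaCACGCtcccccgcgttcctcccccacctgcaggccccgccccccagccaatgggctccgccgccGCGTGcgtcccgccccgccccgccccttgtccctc

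The *Pdk1* window held 1 match, GCGTG with its first base 78 bases before the start. The *Vegfa* window printed here, just upstream of the annotated gene, held 0 matches of these letters. The window of its other start (chr17:46025164-46025413) lies inside the annotated gene. That window held 2, GCGTG at 218 and ACGTG at 211 bases before the start. The *Bnip3* window held 5 matches, with first bases between 117 and 35 bases before the start and a CACGTG palindrome among them. Windows were given for 9 of the 10 members, *Ndrg1* being the exception, with 2 each for *Vegfa* and *Pdk1*. Those of *Hif1a* and *Ankrd37* and the other window of *Pdk1* also lie inside the annotated gene. All windows are counted in the shares that follow. Of these 11 windows 9 (81.8%) held either motif, beside 38.6% of the 32851 windows of all genes. ACGTG alone was found in 7 of the 11 (63.6%), beside 16.6% of all windows. The windows of all genes were not matched to these in base composition, and the members were picked as hypoxia genes. Whether the members hold an excess of the motif was not tested. A match is a run of letters and does not show that HIF binds there, and 0 matches says only that these letters are not in the window.

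*Pdk1* (ENSMUSG00000006494, chr2:71873224-71903858 on GRCm38, + strand) encodes pyruvate dehydrogenase kinase 1, which keeps pyruvate out of the mitochondrial citric acid cycle. Its FPKM was 8.51, 6.85 and 6.57 in the WT and 4.72, 3.71 and 4.06 in the CKO libraries. Each CKO library was below each WT library, which was so for 8.86% of all genes tested, and replicate 1 was the highest of its group in both. The level averaged 7.31 ± 1.05 FPKM in WT against 4.16 ± 0.509 FPKM in CKO (SD, n = 3 each). These values rest on 1115 to 1276 reads in WT and 553 to 754 in CKO libraries.

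The log2 fold change of *Pdk1* was -0.80 (SE 0.15), with a 95% confidence interval from -1.15 to -0.44. The unadjusted limma *p* was 0.0009 and the adjusted *p* 0.201, so *Pdk1* did not pass over all genes tested. Within the replicate numbers the CKO library had 0.554, 0.542 and 0.618 times the FPKM of the WT library of the same number. With the number as a block the standard error was 0.11 and the adjusted *p* 0.00352, so *Pdk1* fell in that fit. In replicates 2 and 3 alone, with 2 libraries per group, the log2 fold change was -0.77 and the adjusted limma *p* 0.000113. In that fit, whose libraries were chosen from these same values, 8.0% of all genes passed as lower and 7.12% as higher.

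*Vegfa* (ENSMUSG00000023951, chr17:46016993-46032369 on GRCm38, − strand) encodes the growth factor that guides vessel sprouting. Its FPKM was 18.7, 14.8 and 14.8 in the WT and 16.9, 10.02 and 11.4 in the CKO libraries. CKO replicate 1 lay above WT replicates 2 and 3, so the groups overlapped, while CKO replicates 2 and 3 were the lowest of the 6. The level averaged 16.1 ± 2.28 FPKM in WT against 12.8 ± 3.62 FPKM in CKO (SD, n = 3 each). The log2 fold change was -0.36 (SE 0.21, 95% confidence interval -0.84 to 0.12), with an unadjusted *p* of 0.122 and an adjusted *p* of 0.712 in limma.

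Within each replicate number *Vegfa* was lower in CKO, at 0.901, 0.679 and 0.769 times the WT library for numbers 1, 2 and 3. With the block the interval ran from -0.60 to -0.12 and the unadjusted *p* was 0.00674, but the adjusted *p* was 0.106 in limma. The call depended on the libraries numbered 1. In replicates 2 and 3 alone, with 2 libraries per group, the log2 fold change was -0.46. There *Vegfa* passed with an adjusted *p* of 0.0109 in limma. In that fit 8.0% of all genes passed as lower. Leaving out CKO replicate 1 gave -0.58 and leaving out CKO replicate 2 gave -0.21, with adjusted limma *p* values of 0.135 and 0.976. Leaving out WT replicate 1 gave -0.25, with an adjusted limma *p* of 0.75. Without WT replicate 1 the difference was thus smaller, and without CKO replicate 1 larger, than with all libraries.

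**Figure D2:**
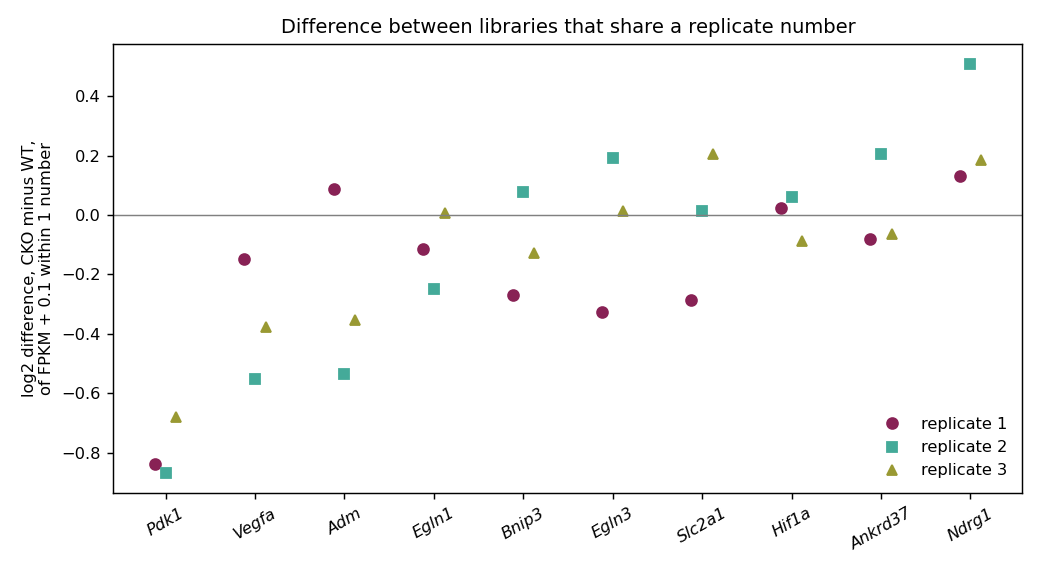
The log2 difference in FPKM + 0.1 between the CKO and the WT library of the same replicate number, for each gene (x axis) and number (symbol). All 3 differences are below 0 for *Pdk1* (-0.84, -0.87 and -0.68) and *Vegfa* (-0.15, -0.55 and -0.38), and all 3 are above 0 for *Ndrg1* (0.13, 0.51 and 0.18).

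The genes whose profile over the 6 libraries was nearest to that of *Vegfa* were *Bicral*, *Man2a2* and *Smtn*, out of 12304 genes ranked. Nearness was the root mean square difference of the log2 values after centring, which was 0.03 for *Bicral* and 0.04 for the other two. *Man2a2*, which encodes a Golgi mannosidase, had FPKM of 9.66, 7.70 and 8.28 in WT and 8.86, 5.40 and 6.08 in CKO libraries. Like *Vegfa*, it was highest in replicate 1 of each group and lowest in CKO replicates 2 and 3. The shared order and the similar fold changes of the 3 genes follow from choosing them by their profile. None of the 3 is a HIF gene of the lists used here, and their log2 fold changes of -0.34, -0.36 and -0.31 had adjusted limma *p* values of 0.748, 0.703 and 0.721.

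*Hif1a* (ENSMUSG00000021109, chr12:73901375-73947530), the oxygen-regulated subunit itself, had FPKM of 27.1, 24.6 and 26.7 in the WT and 27.5, 25.7 and 25.1 in the CKO libraries. The groups lay over each other, with the highest and the second lowest value both in CKO limb buds. The level averaged 26.1 ± 1.34 FPKM in WT against 26.1 ± 1.27 FPKM in CKO (SD, n = 3 each). The log2 fold change was 0.00 (SE 0.11), and its 95% confidence interval from -0.25 to 0.25 spans 0.839-fold to 1.19-fold. Part of the *Hif1a* exons, 148 bases on the same strand and 330 on the other, is shared with annotated neighbours.

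The prolyl hydroxylases *Egln1* and *Egln3* close the loop, since HIF raises their RNA and their proteins mark HIF-α for removal. *Egln1* (chr8:124908587-124949324) had FPKM of 18.7, 17.3 and 17.5 in the WT and 17.3, 14.5 and 17.6 in the CKO libraries. Apart from CKO replicate 2, which was the lowest, all libraries lay within the WT range or at its edge. Its log2 fold change was -0.12 (SE 0.12, 95% confidence interval -0.40 to 0.16, adjusted limma *p* of 0.856). *Egln3* (chr12:54178981-54203860) was far less abundant per length, at 1.88, 1.76 and 1.83 FPKM in the WT and 1.47, 2.02 and 1.84 FPKM in the CKO libraries. The CKO libraries lay on both sides of a narrow WT range, with a log2 fold change of -0.04 (SE 0.16, 95% confidence interval -0.42 to 0.34).

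*Slc2a1* (chr4:119108711-119137983), which encodes the glucose transporter GLUT1, had FPKM of 26.7, 22.0 and 21.2 in the WT and 21.9, 22.2 and 24.4 in the CKO libraries. The CKO values all fell inside the WT range. The log2 fold change was -0.02 (SE 0.13), with a 95% confidence interval of 0.799-fold to 1.21-fold. Its sign turned in replicates 2 and 3 alone, where the log2 fold change was 0.11 (adjusted limma *p* of 0.603). Erythrocyte precursors also make GLUT1, and the summed FPKM of 8 globin genes ran from 37553 to 63710 in WT and from 30645 to 142370 in CKO libraries, with no globin gene at 0. The part of blood in the *Slc2a1* value was not tested.

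*Bnip3* (chr7:138890836-138909519), a mitophagy receptor, had FPKM of 18.6, 22.2 and 21.3 in the WT and 15.4, 23.5 and 19.5 in the CKO libraries. The CKO libraries reached both below and above the WT range, and replicate 1 was the lowest of each group. Its log2 fold change was -0.11 (SE 0.17, 95% confidence interval -0.50 to 0.29, adjusted limma *p* of 0.908). *Ankrd37* (chr8:45996902-46005707), a small ankyrin repeat protein gene, showed the same split, with 1.33, 1.87 and 2.03 FPKM in the WT and 1.26, 2.17 and 1.93 FPKM in the CKO libraries. The libraries numbered 1 were lowest in both groups and the groups overlapped, with a log2 fold change of 0.02 (SE 0.25, 95% confidence interval -0.55 to 0.59). The exons of *Bnip3*, *Ankrd37* and *Ndrg1* share 504, 406 and 556 bases with genes on the other strand, and whether the authors counted by strand is not given in the sources used here.

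*Ndrg1* (chr15:66929318-66969640), a stress-responsive gene, was the member with the highest log2 fold change. Its FPKM was 0.665, 0.868 and 0.772 in the WT and 0.737, 1.28 and 0.890 in the CKO libraries. CKO replicates 2 and 3 were above all WT libraries and CKO replicate 1 was not. The log2 fold change was 0.27 (SE 0.24, 95% confidence interval -0.28 to 0.83), with an adjusted *p* of 0.837 in limma and of 0.512 with the block. *Adm* (chr7:110627661-110629820), which encodes the vessel-dilating peptide adrenomedullin, was nearly silent. It had 0.411, 0.232 and 0.227 FPKM in the WT and 0.444, 0.129 and 0.155 FPKM in the CKO libraries. These stand for 8 to 12 reads per WT library and 4 to 13 per CKO library, and the mean of *Adm* was below the level set for testing.

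**Figure D3:**
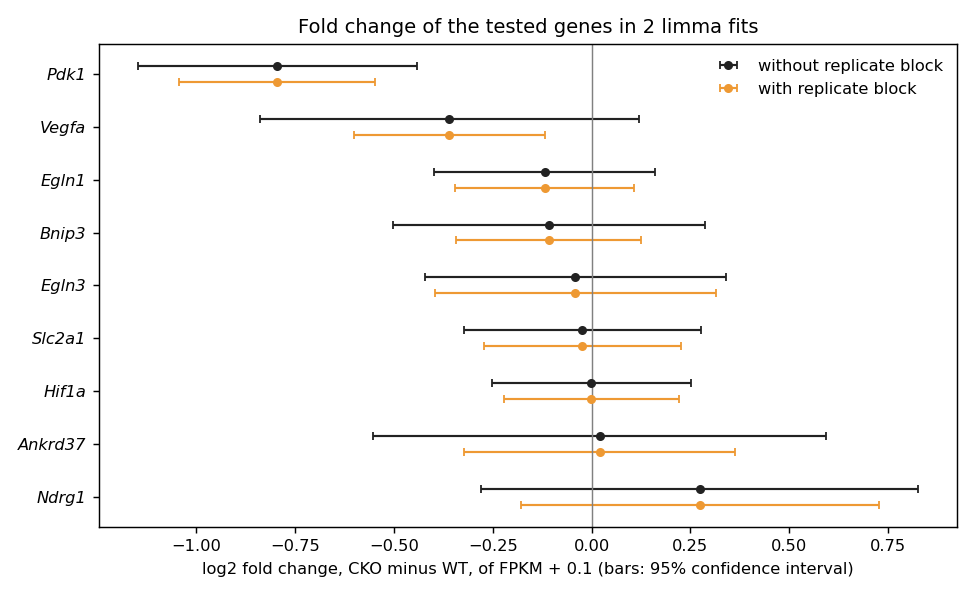
Log2 fold change (CKO minus WT, of FPKM + 0.1, x axis) of the 9 tested genes in limma without (black) and with (orange) the replicate number as a block, with 95% confidence intervals. The interval of *Pdk1* lies below 0 in both fits, that of *Vegfa* only with the block (-0.60 to -0.12), and the other 7 genes include 0 in both.

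In order of mean FPKM over all 6 libraries, *Hif1a* (26.1), *Slc2a1* (23.1), *Bnip3* (20.1), *Egln1* (17.1) and *Vegfa* (14.4) were the most abundant. *Pdk1* (5.74) followed apart from them. The lower genes were *Egln3* (1.799), *Ankrd37* (1.77), *Ndrg1* (0.868) and *Adm* (0.266). Neighbours among the 5 most abundant overlapped in their ranges over libraries, as did *Egln3* with *Ankrd37* and *Ankrd37* with *Ndrg1*, while the range of *Pdk1* (3.71 to 8.51) met neither neighbour. The lists of related genes were compared next, with the same fit and the same thresholds.

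The HIF machinery around the members had log2 fold changes from -0.19 to 0.27. Of 14 genes for HIF subunits and regulators all were tested, 8 were above and 6 below 0, and the median log2 fold change was 0.05. In limma 0 of the 14 passed the adjusted threshold with or without the block, and 0 had an unadjusted *p* under 0.05. The largest differences were those of *Elob* (0.27) and *Eloc* (0.23), which encode the elongins of the VHL ubiquitin ligase, and those of *Arnt2* (-0.19), a HIF partner, and *Egln2* (-0.13), a prolyl hydroxylase. *Elob* had 137, 245 and 178 FPKM in the WT and 142, 302 and 243 FPKM in the CKO libraries, so the libraries numbered 1 were lowest in both groups and the groups overlapped. Of the HIF-α genes, *Epas1* (1.39 to 2.41 FPKM in the WT and 1.38 to 1.85 in CKO) and *Hif3a* (4.03 to 5.75 and 5.01 to 6.13) lay far below *Hif1a*. The partner *Arnt* was at 8.76 to 9.37 FPKM in WT and 7.85 to 10.2 in CKO libraries. *Epas1*, *Hif3a* and *Arnt* were named after their values were seen.

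Among 42 symbols listed as other HIF target genes, 41 were in the table and 37 were tested. Of these, 21 were above and 16 below 0 with a median log2 fold change of 0.02, beside 0.00 for all genes. None passed the adjusted threshold in limma, and 1 higher (*Angptl4*) and 1 lower (*Plod1*) had an unadjusted *p* under 0.05, beside 2.84% higher and 5.46% lower of all genes. With the block 1 of the 37 passed as higher and 0 as lower, beside 1.13% and 1.68% of all genes, so these counts are near the background. Groups did not overlap for *Angptl4* (higher) and for *Plod1* and *Car12* (lower), beside 5.63% and 8.86% of all genes in those directions.

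*Angptl4*, which encodes a secreted inhibitor of lipoprotein lipase, had FPKM of 7.04, 8.56 and 7.52 in the WT and 8.91, 14.6 and 12.3 in the CKO libraries. All CKO libraries were above all WT libraries, but CKO replicate 1 only just. The log2 fold change was 0.60 (SE 0.19), with an adjusted *p* of 0.449 in limma and of 0.0182 with the block, in which *Angptl4* rose. *Plod1*, which encodes a collagen lysyl hydroxylase, had 5.31, 6.58 and 6.38 FPKM in WT and 4.67, 3.74 and 4.38 FPKM in the CKO libraries. Its groups were apart, with a log2 fold change of -0.50 (SE 0.14), an adjusted limma *p* of 0.395 and one of 0.064 with the block. *Car12*, a carbonic anhydrase gene, differed by -0.40 (SE 0.19), with an adjusted *p* of 0.653 in limma. *Slc2a3* and *Bnip3l*, relatives of 2 members named after their values were seen, had log2 fold changes of 0.18 and 0.12 and overlapping groups.

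Over 9 other VEGF ligands and receptors, the median log2 fold change was -0.25, with 6 below and 3 above 0. In limma 0 of the 9 passed the adjusted threshold with or without the block, and 1 (*Nrp1*, higher) had an unadjusted *p* under 0.05, beside 2.84% of all genes. *Nrp1*, a co-receptor for VEGFA and semaphorins, had FPKM of 5.25, 3.38 and 3.72 in the WT and 6.21, 6.58 and 5.24 in the CKO libraries. The groups overlapped by WT replicate 1 alone, and the log2 fold change was 0.55 (SE 0.19), with adjusted *p* values of 0.488 in limma and 0.055 with the block. *Nrp2*, its relative, was at 0.04 (SE 0.14), and that sign turned to -0.07 when libraries were scaled without globin genes.

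*Kdr*, the main signalling receptor of VEGFA, had 5.41, 2.62 and 3.50 FPKM in the WT and 2.31, 2.76 and 2.94 FPKM in the CKO libraries. WT replicate 1 was far above the rest and the groups overlapped, with a log2 fold change of -0.45 (SE 0.25, adjusted limma *p* of 0.705). *Flt4*, the receptor for VEGFC, had 1.85, 0.812 and 0.902 FPKM in the WT and 0.698, 0.685 and 0.764 FPKM in the CKO libraries. All CKO libraries were lower, as for 8.86% of all genes, with a log2 fold change of -0.57 (SE 0.30, adjusted limma *p* of 0.682). The groups were also apart for *Vegfb*, a ligand named after its values were seen, at 17.8 to 20.1 FPKM in WT and 13.4 to 17.6 in CKO libraries. The difference of *Kdr* was -0.18 without WT replicate 1, and that of *Flt4* -0.23.

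Endothelial markers had log2 fold changes of the same sign as *Kdr* and *Flt4*. All 11 of the 11 tested were below 0 in the log2 fold change, with a median of -0.32, and 3 (*Tie1*, *Egfl7* and *Sox18*) had CKO values all below WT, as did 8.86% of all genes. The summed FPKM of the 12 markers, none of which was at 0, was 45.1, 37.3 and 38.3 in the WT and 25.1, 36.3 and 34.6 in the CKO libraries. The difference lay mostly in the libraries numbered 1, since the median log2 difference of the 11 was -0.91 within number 1, -0.16 within number 2 and -0.06 within number 3. In limma 3 of the 11 had an unadjusted *p* under 0.05, all lower, beside 5.46% of all genes, and 0 passed the adjusted threshold with or without the block. The part of the endothelial share in the values of *Kdr*, *Flt4* and *Vegfa* was not tested.

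**Figure D4:**
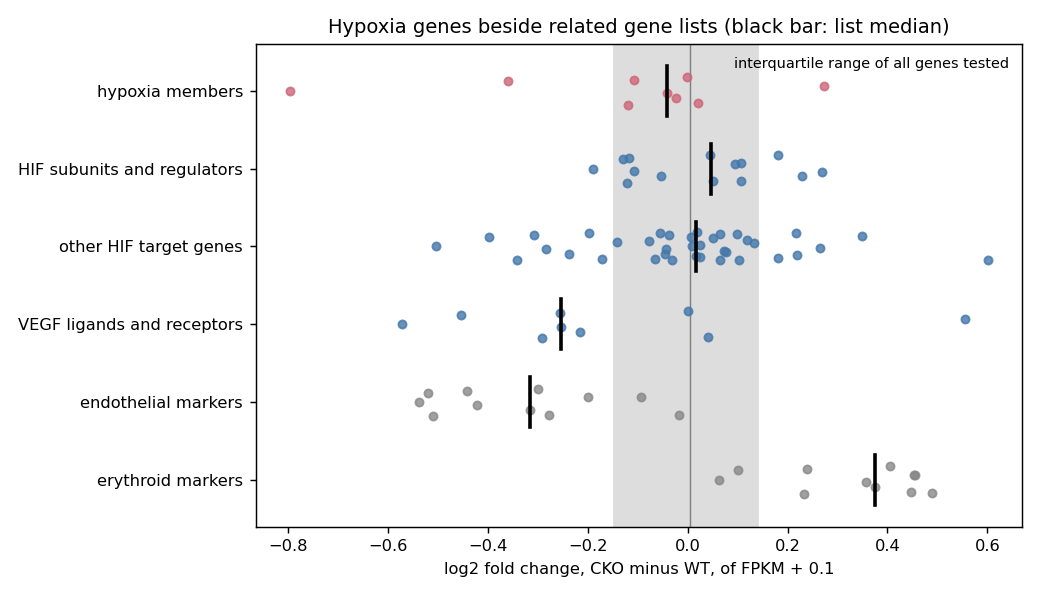
Log2 fold change (CKO minus WT, x axis) of every tested gene of 6 lists (points), with the list median as a black bar and the interquartile range of all 12305 genes in grey (-0.15 to 0.14). The hypoxia genes and the other HIF targets centre near 0, the VEGF (-0.25) and endothelial (-0.32) lists lie lower and the erythroid list (0.37) higher.

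Other cells of the limb bud also varied between libraries. The 11 erythroid markers in the table had summed FPKM of 636 to 743 in WT and 545 to 1373 in CKO libraries, the lowest in CKO replicate 1 and the highest in CKO replicate 2. Globin genes made up 13.7% to 20.6% of the summed FPKM in WT and 11.7% to 32.4% in CKO libraries. *Bnip3*, *Ankrd37*, *Egln3* and *Ndrg1* had the same order over the CKO libraries as the globin sum, and *Vegfa*, *Pdk1* and *Adm* the reverse order, a relation across 3 libraries that was not tested. With libraries scaled to the sum without globin genes, the median of all genes moved to -0.10, and *Pdk1* was at -0.90 and *Vegfa* at -0.47. Summed levels of 8 macrophage markers were 21.0 to 33.3 FPKM in WT and 21.3 to 47.0 in CKO libraries. Those of 9 limb mesenchyme markers were 367 to 383 and 321 to 357, and those of 8 ectoderm markers 46.9 to 78.0 and 51.7 to 80.2, with no marker of these lists at 0. With the block 1 of the 9 mesenchyme markers was called and none of the other marker lists, beside 1.68% lower and 1.13% higher of all genes. This was *Tbx5*, a forelimb transcription factor gene that was lower (adjusted limma *p* of 0.358, and 0.00734 with the block). Groups did not overlap for *Tbx5*, *Pitx1* and *Pdgfra* of the mesenchyme list (2 lower and 1 higher) and for *Trp63* of the ectoderm list (higher). The shares of all genes without overlap were 8.86% lower and 5.63% higher.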

How the data were processed

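The 3 WT and 3 CKO RNA-seq libraries of E11.5 limb buds were analysed, out of 34 samples in the series. The other samples are not analysed here. The authors deposited 1 table of FPKM, made from stranded mRNA libraries, with 1 column per library. The submitters' processing notes name cutadapt 2.5, HISAT2 2.1.0, featureCounts 1.6.3 and the build mm10, without a role for each, and the annotation is not given in the sources used here. FPKM times the merged exon length of GENCODE vM21 gave whole reads (tolerance 0.1) for 93.7% to 94.1% of low values per library, so reads were recovered; in CKO replicates 2 and 3 they exceed the library size that the authors divided by, 1.11 and 1.03 times, so the FPKM may carry a scaling between libraries, which was not tested.

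Genes whose mean reached 0.5 FPKM were tested on log2(FPKM + 0.1) with limma 3.58.1 (eBayes with trend) in R 4.3.3, with Benjamini-Hochberg adjustment over all 12305 genes. On simulated data with 12305 genes, no known change that was called had the wrong sign, which the check required. How many known changes were called is not reported here, so the check does not show how sensitive the fit was. A symbol with several rows was taken as the row with the highest mean.

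Libraries of the groups share replicate numbers. Deviations from the group means correlated across genes at 0.636, 0.443 and 0.266 for numbers 1, 2 and 3, and so each number was treated as a pair. However, CKO replicate 3 correlated more with WT replicate 2 (0.495), and WT replicate 3 more with CKO replicate 2 (0.307). The values thus set number 1 apart but do not show that numbers 2 and 3 are pairs. They are also the same values that the block then tests, and the study describes no pairing of the RNA-seq libraries. What a number stands for is not given in the sources used here. The pairing was read from the labels and these values, and the block was an alternative.

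The members and lists were chosen with earlier results of these data known. Beside the members, genes were named when called within a list, when among the 2 largest rises or falls of a list, or when nearest to *Vegfa*; others are said to be named after their values were seen. A single result under this rule is not reported here. The lists were HIF subunits and regulators, other HIF targets, VEGF ligands and receptors, and endothelial, globin, erythroid, macrophage, limb mesenchyme and ectoderm markers. Alternatives were the pseudocount, the filter, 3 scalings, no trend, the block, replicates 2 and 3 alone, each library left out, and voom on recovered reads. Voom used the library sizes that the authors divided by, so it shares any scaling that these carry. Promoter windows came from RefSeq.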

Additional observations from a re-analysis of the deposited data

How the results depend on the processing

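The 18 alternatives kept the direction of *Pdk1* and *Vegfa* in each fit, at log2 fold changes of -0.90 to -0.68 and of -0.58 to -0.21. The filter, the trend and the block on FPKM leave a gene's fold change as it was, so these fits could not turn its sign. The replicate block moved the genes past the adjusted threshold from 8 to 346, the members past it from 0 to 1 and the members with an unadjusted *p* under 0.05 from 1 to 2. Voom with the block gave 651 genes, 1 and 2 members, and replicates 2 and 3 alone gave 1863 genes, 2 and 2 members (*Vegfa* and *Pdk1*). Scaling without globin genes gave 4 genes and quantile normalization 14. Leaving out 1 library at a time gave 1 to 23 genes, 0 members past the adjusted threshold, 1 to 2 members at the unadjusted one (2 without CKO replicate 1, *Vegfa* being added) and member medians of -0.13 to 0.01; without WT replicates 2 or 3 or CKO replicates 2 or 3 there were 3, 1, 1 and 1 genes, and without CKO replicate 1 there were 23. The block changed no other call of a named gene than those of *Pdk1*, *Angptl4* and *Tbx5*; voom with the block also called *Plod1*, *Nrp1* and *Hnrnpk*, and replicates 2 and 3 alone these and the 3 genes nearest to *Vegfa*. Values near 0 turned sign: *Hif1a* was 0.0156 with median-ratio scaling, *Ankrd37* -0.0822 and *Nrp2* -0.0664 without globin genes, *Egln3* 0.0389 with quantile normalization, and *Egln3*, *Slc2a1* and *Nrp2* 0.10, 0.11 and -0.10 in replicates 2 and 3 alone. With 1 library left out, *Hif1a* ran from -0.0433 to 0.0266, *Bnip3* from -0.25 to 0.0490, *Ankrd37* from -0.15 to 0.24, *Egln3* from -0.13 to 0.0811, *Slc2a1* from -0.0878 to 0.0795 and *Nrp2* from -0.0415 to 0.15. The cause of these changes was not tested. *Adm* had at most 13 reads in a library.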
